A study of Mus musculus with 20 samples.

Results

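The genes Slfn1, Slfn2 and Slfn4 were followed across 20 Affymetrix arrays of mouse CD8 T cells. They were taken as every gene of the Schlafen family that had a probe set of its own on the array, which made 3 of 8251 genes. None of 7 other Schlafen genes looked for had one (0 of 7). Slfn1 had 1 probe set and Slfn2 had 2, called here the brighter and the dimmer. Slfn4 had 1 probe set of its own, and 1 more was annotated to Slfn4 and Slfn3 together. Both Slfn2 probe sets carry the maker's suffixes for an incomplete set or for a sequence family, and members of this family resemble each other, so signal from a relative cannot be told apart on this array.

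All cells were CD44lo CD8 T cells from lymph nodes of C57Bl6 mice aged 6 to 8 weeks that carry the OT-1 T cell receptor transgene, whose receptor recognises an ovalbumin peptide on H-2Kb. For stimulation (Ag-B7), this complex and B7-1, a ligand that costimulates T cells, were coated on latex beads, and human rIL-2 was in every culture. The additions were murine rIL-12, universal type I IFN (IFNa/b) and trichostatin A (TSA), which inhibits histone deacetylases. At 48 h there were 3 arrays of Ag-B7 with IL-12, 3 of Ag-B7 with IFNa/b and 4 of Ag-B7 alone. Naive cells at 0 h had 3 arrays. At 24 h and again at 72 h, each of these stimulated conditions had 1 array, and TSA was added on 1 array at 72 h. No group received a cytokine without Ag-B7. Replicates are labelled biological, with no word on animals or pools, so p-values measure the spread between these samples.

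Schlafen proteins are a family found mainly in immune cells, and many family members are raised by type I interferon. Slfn1 and Slfn2 are short members; in mice, forced expression of Slfn1 in T cells holds back their growth, and mice with a mutated Slfn2 have T cells that cannot keep their quiescent state. Slfn4 is a longer member, studied mainly in macrophages and other myeloid cells of the mouse. Type I interferon signals through its receptor Ifnar1 and Ifnar2 and the kinases Jak1 and Tyk2 to a transcription factor complex that contains Irf9, which binds the interferon-stimulated response element (ISRE) in target promoters. IL-12 signals through the kinases Jak2 and Tyk2 to Stat4.

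The 3 genes are neighbours on mouse chromosome 11. In the order Slfn2, Slfn1, Slfn4, the RefSeq annotation (GRCm38.p6) places only long non-coding RNA genes between them. The 250 bases before the start of each gene were read from RefSeq (GRCm38.p6), because the members share a locus and Slfn1 was called higher with IFNa/b at 48 h while Slfn2 and Slfn4 were not; whether they differ could not be tested at the 0.05 level. They are chr11:83116570-83116819 for Slfn1, chr11:83064862-83065111 for Slfn2 and chr11:83174936-83175185 for Slfn4, all on the + strand. Capitals mark the longest run of letters that all 3 share.
Slfn1: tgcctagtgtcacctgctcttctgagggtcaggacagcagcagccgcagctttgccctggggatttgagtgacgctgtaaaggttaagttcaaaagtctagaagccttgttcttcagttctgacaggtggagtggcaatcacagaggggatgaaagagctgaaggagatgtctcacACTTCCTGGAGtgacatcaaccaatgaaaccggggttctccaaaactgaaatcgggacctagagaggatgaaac
Slfn2: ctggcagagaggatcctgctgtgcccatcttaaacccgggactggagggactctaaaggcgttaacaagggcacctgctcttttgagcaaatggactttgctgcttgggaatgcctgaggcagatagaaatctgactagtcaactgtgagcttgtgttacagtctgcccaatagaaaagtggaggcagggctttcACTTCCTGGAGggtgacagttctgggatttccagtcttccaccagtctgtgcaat
Slfn4: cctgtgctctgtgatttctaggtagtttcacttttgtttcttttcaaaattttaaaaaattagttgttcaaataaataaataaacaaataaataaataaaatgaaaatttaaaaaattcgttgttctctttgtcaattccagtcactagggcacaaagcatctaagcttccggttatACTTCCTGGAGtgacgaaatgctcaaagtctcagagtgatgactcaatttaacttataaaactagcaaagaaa

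The shared run ACTTCCTGGAG has 11 bases and begins 74 bases before the start of Slfn1, 55 before that of Slfn2 and 73 before that of Slfn4. It was searched for after the letters had been seen. On either strand it was present in 20 of 32851 RefSeq promoter windows of the same length, or 0.0609%, and in 0 of 56 windows of 44 interferon-stimulated genes. The 20 include the windows of Slfn1, Slfn2 and Slfn4, from which the run was chosen. The ISRE core GAAANNGAAA had 0 matches on either strand in all 3 windows. It was present in 2.98% of all windows and in 18 of the 56 windows of interferon-stimulated genes. The core of the gamma-activated site, TTCNNNGAA, also had 0 matches in all 3 windows and was present in 7.02% of all windows and in 9 of the 56. These counts describe letters within 250 bases of 1 annotated start, and say nothing about binding.

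Values below are intensities in arbitrary units, scaled by the submitters to a common mean per array. Differences are of log2(intensity + 46.4), which understates changes of dim genes. The 12 CD8 T cell markers on the array passed the filter on low values in full, and their summed intensity was 82593 to 147659 on the 17 stimulated arrays and 84934 to 152319 on the 3 naive arrays. Of 24 myeloid markers on the array, 14 passed the filter. The summed intensity of all 24 was 3947 to 12147 on stimulated arrays, against 18542 to 27892 on naive arrays. Of the 24, 3 (Csf1r, Cd14 and Ctss) lay above the 40th percentile on all 20 arrays and 8, among them Lyz2, Itgam and Adgre1, on 0. The macrophage gene C1qb had 23.7 to 532 on stimulated arrays, against 703 to 3042 on naive arrays. The summed intensity of 4 erythroid and platelet markers was 395 to 1139 on stimulated arrays, against 6418 to 14827 on naive arrays, and that of 9 stromal markers was 2065 to 4154, against 4928 to 12812. That of 13 B cell markers was 6057 to 18099, against 15397 to 20578. Naive replicate 2 stood apart, with the highest myeloid sum (27892) and the highest ratio of 3' to 5' actin signal (2.06, against 1.13 and 1.61 on the other naive arrays and 1.00 to 1.15 on stimulated arrays). The part of these differences in the results on naive cells was not tested, and the members' differences from naive cells and the list counts are given with and without it.

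Slfn1 was high in naive cells and lower after Ag-B7. Its values at every time were lower with IL-12 and higher with IFNa/b than with Ag-B7 alone, with 1 array a group at 24 h and 72 h. At 24 h, Slfn1 with IL-12 and with Ag-B7 alone lay within the range of the same replicated group. Its intensity at 48 h was 506, 177 and 324 on the 3 arrays of Ag-B7 with IL-12, and 2422, 2001 and 2080 on those of Ag-B7 with IFNa/b. Ag-B7 alone at 48 h gave 931, 892, 729 and 611. Naive cells gave 3674, 3447 and 4587. The 4 groups did not overlap in any pair compared. Groups did not overlap for 56% of all genes between Ag-B7 and naive cells, for 7.17% between IL-12 and Ag-B7 alone, for 6.74% between IFNa/b and Ag-B7 alone and for 12.6% between IL-12 and IFNa/b. Between arrays Slfn1 spanned 177 to 4587, a 25.9-fold range, and lay above the array median on 19 of 20 arrays.

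The single arrays of Slfn1 each lay within the range of 1 of these 4 groups. At 24 h it had 302 with IL-12, 2073 with IFNa/b and 439 with Ag-B7 alone. At 72 h it had 771 with IL-12, 4335 with IFNa/b, 724 with TSA and 2301 with Ag-B7 alone. Ranked by level, Ag-B7 with IFNa/b at 72 h lay within the naive range. Ag-B7 with IFNa/b at 24 h and Ag-B7 alone at 72 h lay within the range of Ag-B7 with IFNa/b at 48 h. The 72 h arrays with IL-12 or TSA lay within the range of Ag-B7 alone at 48 h. The 24 h arrays with Ag-B7 alone or with IL-12 lay within the range of Ag-B7 with IL-12 at 48 h. Neighbours within each of these 4 levels did not differ beyond the spread of the replicated group.

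**Figure D1:**
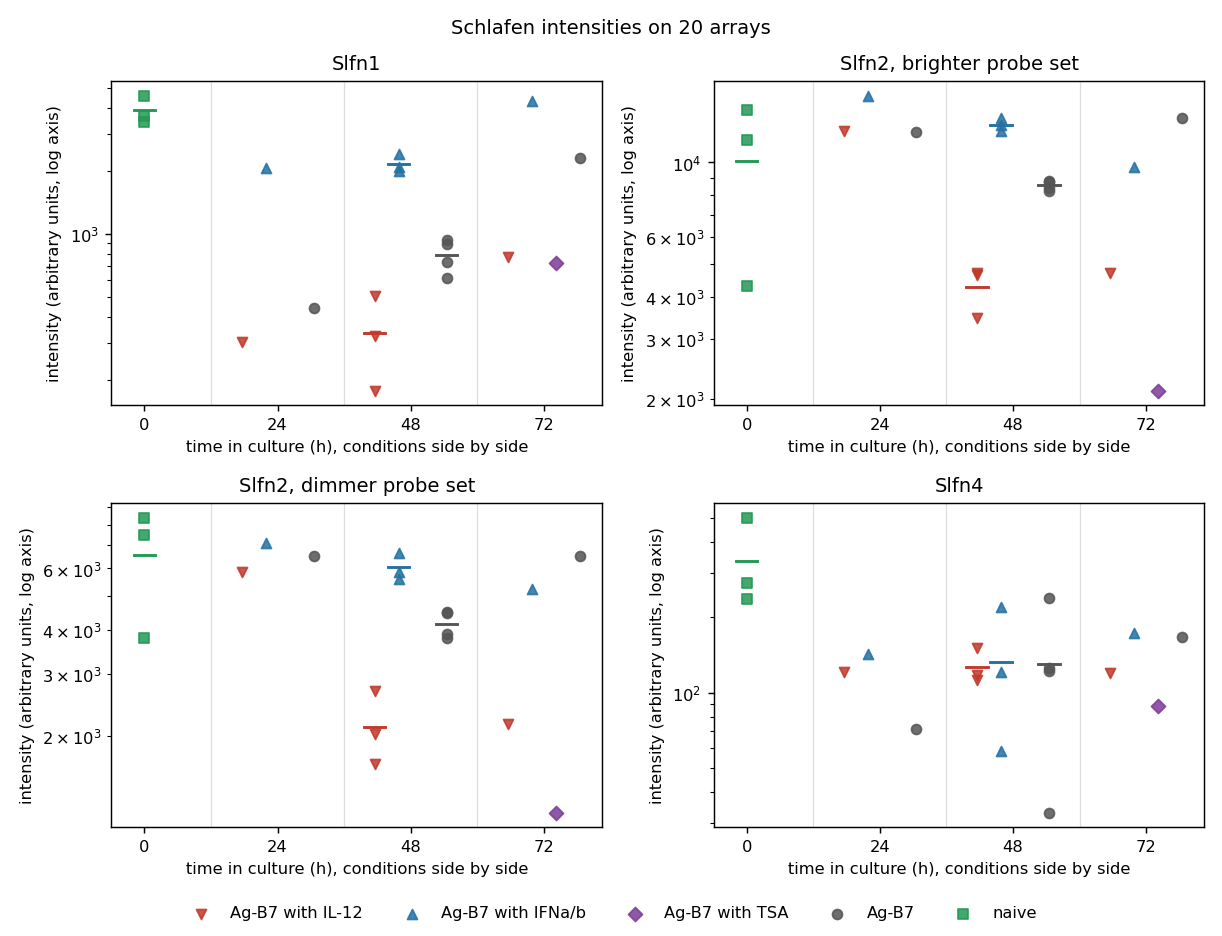
Intensity (log axis, arbitrary units) of Slfn1, the brighter and the dimmer Slfn2 probe set and Slfn4 on all 20 arrays by time in culture, with 1 point per array, conditions side by side, and bars at the mean intensity of replicated groups. Slfn1 on IFNa/b arrays lies above Ag-B7 alone at each time, naive replicate 2 is the low naive point of both Slfn2 probe sets (4294 and 3791), and Slfn4 groups overlap.

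Slfn2 was bright in naive and stimulated cells and was low with IL-12 from 48 h and with TSA. On the brighter probe set, Ag-B7 with IL-12 at 48 h gave 4638, 3456 and 4723, and Ag-B7 with IFNa/b gave 12895, 13580 and 12380. Ag-B7 alone at 48 h gave 8416, 8248, 8812 and 8744, so the 3 stimulated groups did not overlap. Naive cells gave 14331, 4294 and 11656, a range that held all 4 arrays of Ag-B7 alone. Replicate 2, the array that stood apart, was the low one.

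At 24 h Slfn2 had 12429 with IL-12, 15757 with IFNa/b and 12285 with Ag-B7 alone. At 72 h it had 4717 with IL-12, 9729 with IFNa/b, 2112 with TSA and 13517 with Ag-B7 alone. The IL-12 array at 72 h lay within the range of Ag-B7 with IL-12 at 48 h, and the TSA array was below every other array. In rank order, the 3 arrays at 24 h and, at 72 h, those of Ag-B7 with IFNa/b or alone lay above every array of Ag-B7 alone at 48 h. Of these, all but Ag-B7 with IFNa/b at 24 h lay within the wide naive range and did not differ from naive cells beyond it. The brighter Slfn2 probe set stayed between the percentiles 84.8 and 98.5 of its array.

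The dimmer Slfn2 probe set followed the brighter one, with a Pearson correlation of 0.949 over 20 arrays, as a description. At 48 h it gave 2685, 1660 and 2015 with IL-12, 6652, 5880 and 5588 with IFNa/b, and 4521, 3793, 3897 and 4466 with Ag-B7 alone. Naive cells gave 7462, 3791 and 8376. The 3 stimulated groups again did not overlap, and naive replicate 2 was again the low naive array. The TSA array was the lowest of all, at 1205.

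Slfn4 was dim everywhere. Its intensity was 118, 112 and 150 with IL-12 at 48 h, 58.2, 220 and 120 with IFNa/b, and 33.1, 122, 239 and 125 with Ag-B7 alone. Naive cells gave 274, 499 and 236. It lay above the array's 40th percentile, the limit of the filter, on 5 of the 13 replicated arrays and on 7 of all 20, and above the array median on 0. The single arrays ran between 71.7 (Ag-B7 alone at 24 h) and 173 (the 72 h array with IFNa/b), and every one lay within the range of the 48 h groups. The probe set shared with Slfn3 had 46.5 to 278, lay above the median on 1 array, and overlapped in each of the 4 comparisons.

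Ag-B7 at 48 h was compared with naive cells at 0 h. No group was kept in culture without Ag-B7, so the parts of Ag-B7, time in culture and human rIL-2 cannot be told apart. Slfn1 fell by 2.24 ± 0.26 on the log2 scale (limma's standard error; 4.74-fold; adjusted p = 3.21e-06), and the Ag-B7 arrays lay below the naive arrays in all 4 of 4 cases. The brighter Slfn2 probe set differed by -0.07 ± 0.29 (adjusted p = 0.851 in limma). Slfn4 fell by 1.20 ± 0.44 (adjusted p = 0.0271 in limma), although Ag-B7 replicate 3 (239) overlapped naive replicate 3 (236). The background was large: 61.7% of 6279 genes were called in either direction and 35.6% were called lower, so 2 called members of 3 is a share near it.

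Naive replicate 2 carried much of the Slfn2 and Slfn4 result. The SD of Slfn2 (log2) was 0.045 with Ag-B7 alone, against 0.92 in naive cells. Without naive replicate 2, Slfn2 fell by 0.59 (adjusted p = 0.00495 in limma), and the dimmer probe set, fitted beside every other probe set with all arrays, fell by 0.57 ± 0.24 (adjusted p = 0.0475 in limma, and 0.0518 with no filter on low values). Without naive replicate 2 the dimmer probe set fell by 0.92 ± 0.18 (adjusted p = 0.000761 in limma). Slfn4 without that array differed by -0.91 (adjusted p = 0.119 in limma), and without replicate 1 of Ag-B7 alone by -0.86 (adjusted p = 0.0928 in limma). The Slfn1 call held without it, at -2.33 (adjusted p = 1.23e-05 in limma). Fewer cells with a transcript and less of it per cell cannot be told apart in these bulk samples.

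This comparison also depended on scaling. The median of all genes was -0.23 with the deposited scaling, 0.03 after quantile normalization, 0.41 after median centring and 1.30 after scaling to the spike-in controls. Genes called higher and lower numbered 1640 and 2236 with the deposited scaling, 1939 and 1640 after quantile normalization, 2552 and 1001 after median centring and 3781 and 95 after spike-in scaling. Relative to that median, Slfn1 was at -2.01, -2.38, -2.01 and -1.82 under the 4 scalings in that order. Slfn2 was at 0.17, -0.34, 0.17 and 0.39, so its sign flipped, and Slfn4 was at -0.96, -0.53, -0.96 and -1.11. Not relative to the median, spike-in scaling gave Slfn1 -0.51 (adjusted p = 0.321 in limma), Slfn2 1.69 (adjusted p = 0.00201 in limma) and Slfn4 0.20 (adjusted p = 0.744 in limma).

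Adding IL-12 lowered Slfn1 at 48 h and left Slfn4 without a detectable difference. Slfn1 fell by 1.21 ± 0.26 (2.31-fold; adjusted p = 0.0430 in limma), lower on 3 of 3 IL-12 arrays than on any array of Ag-B7 alone. Only 0.621% of genes were called in this comparison, 0.239% lower and 0.382% higher. The Slfn1 call lay at the edge of the threshold and was lost in 17 of 25 alternatives, with adjusted p between 0.0132 and 0.321. Its difference kept its sign in all 25, between -1.52 and -0.87. Without IL-12 replicate 2, the lowest array, the difference was -0.87 (adjusted p = 0.269 in limma). The B cell marker sum was 6057 to 7210 with IL-12, against 7451 to 13818 with Ag-B7 alone, and its part in these differences was not tested.

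Slfn2 differed by -1.01 ± 0.29 with IL-12 at 48 h (2.01-fold; adjusted p = 0.206 in limma), and the dimmer probe set by -0.98 ± 0.24 (adjusted p = 0.0951 in limma). Neither passed the threshold in the fit of all 13 arrays. The IL-12 arrays lay below those of Ag-B7 alone on both probe sets, and these groups did not overlap for 7.17% of all genes. The pooled SD of Slfn2 was 0.453 over the 4 groups and 0.141 over the 3 stimulated groups. Without naive replicate 2, which is no array of this comparison, the adjusted p of the same difference was 0.00178 (limma). In a fit of the 2 groups alone it was 0.00756, and with the replicate number as a block in that fit it was 0.00114 (-0.997; limma). With the block in the fit of all 4 groups, which pairs the IFNa/b arrays by number too, it was 0.226 (limma). Slfn4 differed by 0.11 ± 0.44 (adjusted p = 0.998 in limma).

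Adding IFNa/b raised Slfn1 at 48 h. Slfn1 rose by 1.42 ± 0.26 (2.67-fold; adjusted p = 0.0165 in limma) and was higher on 3 of 3 IFNa/b arrays than on any array of Ag-B7 alone. In this comparison 0.43% of genes were called, 0.414% higher and 0.0159% lower. The call held in 17 of 24 alternatives, with differences of 1.31 to 1.51. It was lost without any 1 of the 3 IFNa/b arrays (adjusted p = 0.138, 0.0820 and 0.0830 in limma) and without replicate 3 of Ag-B7 alone (adjusted p = 0.0561 in limma).

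Slfn2 differed by 0.60 ± 0.29 with IFNa/b (1.51-fold; adjusted p = 0.99991 in limma). Its arrays did not overlap on either probe set, as for 6.74% of all genes. The 2 groups fitted alone gave an adjusted p of 0.0472 (limma), and the other alternatives did not pass the threshold. Slfn4 differed by 0.06 ± 0.44 (adjusted p = 0.99991 in limma).

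When IL-12 and IFNa/b were set directly against each other at 48 h, both short members were called lower with IL-12 in limma. Slfn1 was lower with IL-12 than with IFNa/b by a log2 difference of -2.62 ± 0.28 (6.17-fold; adjusted p = 3.49e-05 in limma), and the call held in all 24 alternatives. Slfn2 was at -1.60 ± 0.31 (3.04-fold; adjusted p = 0.0105 in limma), and the dimmer probe set at -1.51 ± 0.25 (adjusted p = 0.00389 in limma). The share of all genes called was 0.94%, and 0.653% were called lower. The Slfn2 call held in 20 of 24 alternatives; it was lost with median centring, with spike-in scaling, without IFNa/b replicate 2 and without IL-12 replicate 2. Slfn4 was at 0.05 ± 0.47 (adjusted p = 0.999 in limma). Marker sums differed between these groups too: 4177 to 5065 with IL-12, against 5710 to 6750 with IFNa/b, for myeloid markers, 6057 to 7210, against 7677 to 9754, for B cell markers and 2276 to 4856, against 666 to 1509, for 3 NK cell markers. Of the 3 NK cell markers, Klrd1 lay above the 40th percentile on all 17 stimulated arrays, Klra7 on 3 and Ncr1 on 0. The part of these marker sums was not tested.

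**Figure D2:**
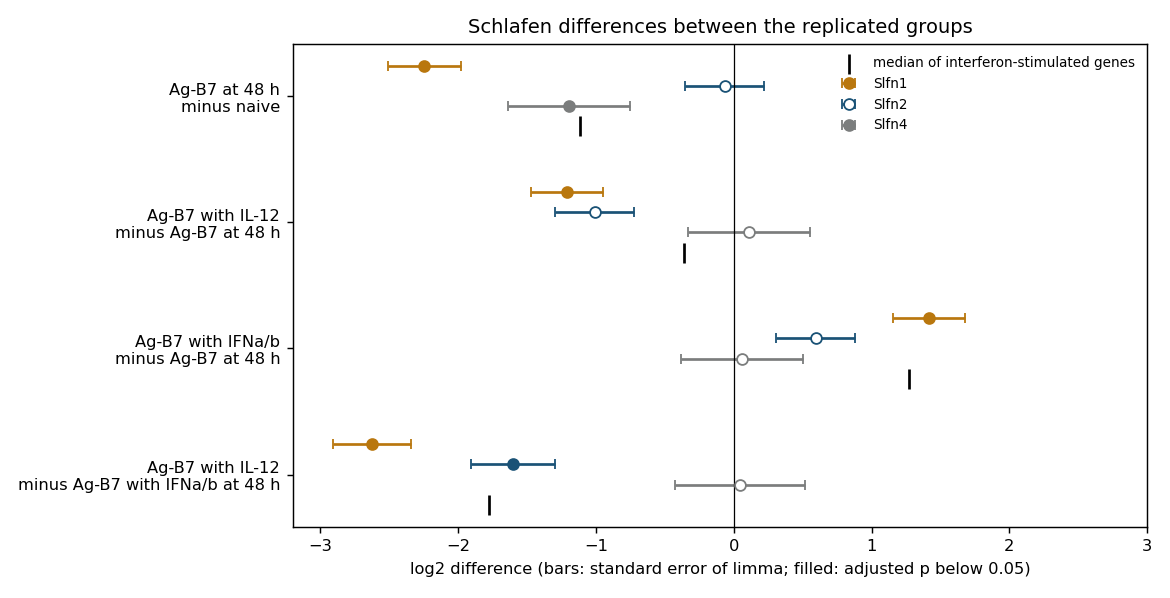
Log2 differences between the replicated groups for Slfn1, Slfn2 and Slfn4 from limma, with bars of 1 standard error and filled points where the adjusted p was below 0.05; ticks mark the median difference of the 36 interferon-stimulated genes tested. Slfn1 is filled in all 4 comparisons, Slfn2 in that of IL-12 with IFNa/b (-1.60), and Slfn4 in that of Ag-B7 with naive cells.

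Whether the members moved by unequal amounts was tested on their difference within each array, in 12 comparisons. Exact permutation of 3 arrays against 4 cannot give a two-sided p below 0.0571, and of 3 against 3 none below 0.1. No comparison could therefore reach 0.05, and the lowest p adjusted over the 12 was 0.171. The log2 difference Slfn1 minus Slfn2 was lower by 2.18 with Ag-B7 than in naive cells, at -3.38 and -1.20, with no overlap between arrays (exact p = 0.0571). Without naive replicate 2, where it was highest, the naive mean was -1.64 and the change -1.73 (exact p = 0.133, the smallest that 4 against 2 arrays allow). It was higher by 0.82 with IFNa/b than with Ag-B7 alone, at -2.56 and -3.38, again with no overlap (exact p = 0.0571). With IL-12 it was at -3.58, against -3.38 with Ag-B7 alone, and the arrays overlapped (exact p = 0.571).

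The single arrays at 24 h and 72 h have no replicate check, and differences there carry no test. Slfn1 with IL-12 differed from Ag-B7 alone by -0.48 at 24 h, -1.21 at 48 h and -1.52 at 72 h. With IFNa/b it differed by 2.13, 1.42 and 0.90 at the same times. At 24 h, 15 of 6279 genes were more positive with IFNa/b than Slfn1, and 1.69% were at least 2-fold higher. With Ag-B7 alone at 24 h, Slfn1 differed by -3.01 from naive cells, where 32.5% of genes were at least 2-fold lower. It was -3.10 without naive replicate 2, -2.22 with median centring and -1.05 with spike-in scaling. Slfn2 was 0.45 in that comparison and -0.07 without naive replicate 2, and Slfn4 was -1.64 and -1.35. The level of Slfn1 with Ag-B7 alone was higher later: 72 h was 1.51 above 48 h, where 9.16% of genes were at least 2-fold higher.

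Slfn2 was nearly level with IL-12 at 24 h, at 0.02 on the brighter and -0.16 on the dimmer probe set. At 48 h these were -1.01 and -0.98, and at 72 h -1.51 and -1.57. At 72 h, 4.14% of genes were at least 2-fold lower with IL-12, and 71 of 6279 were more negative than the brighter probe set. With IFNa/b, Slfn2 differed by 0.36, 0.60 and -0.47 at 24, 48 and 72 h, so it was below Ag-B7 alone at 72 h with the deposited scaling, and above it with spike-in scaling (0.12). Slfn4 differed by at most 0.67 in size from Ag-B7 alone in these 6 comparisons, all at dim levels.

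TSA at 72 h gave the lowest Slfn2 of the series. The log2 difference from Ag-B7 alone was -2.65 (6.29-fold) on the brighter and -2.39 on the dimmer probe set, and 14 of 6279 genes were more negative than the brighter one. At least 2-fold lower were 8.97% of genes. Slfn1 differed by -1.61 (3.05-fold) and Slfn4 by -0.66. Set beside IL-12 at the same time, the TSA array was at -1.14 for Slfn2, -0.09 for Slfn1 and -0.30 for Slfn4, while 9.87% of genes were at least 2-fold lower. The comparisons at 72 h share the 1 array of Ag-B7 alone. At 72 h the NK cell marker sum was 14904 with IL-12, 11030 with IFNa/b and 4140 with TSA, against 28168 with Ag-B7 alone, and the B cell sum was 11288, 14779 and 10133, against 18099. Of the NK cell markers, Klrd1 alone lay above the 40th percentile on all 17 stimulated arrays, and Ncr1 did on 0. The part of these sums in the 72 h differences was not tested.

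**Figure D3:**
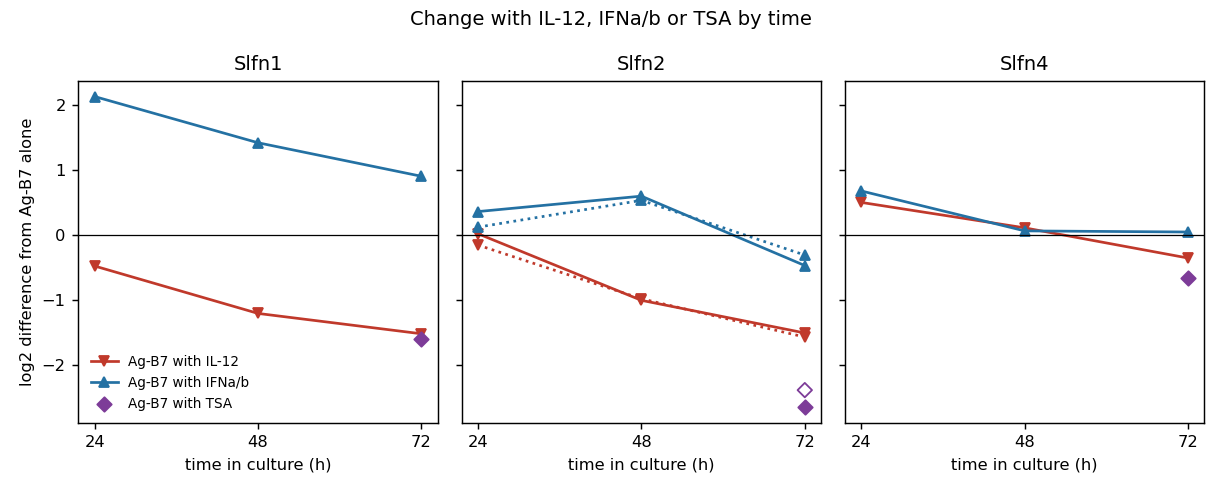
Log2 difference from Ag-B7 alone at the same time for Slfn1, Slfn2 and Slfn4 with IL-12, IFNa/b or TSA at 24, 48 and 72 h; solid lines and filled symbols are the brighter or sole probe set, dotted lines and the open diamond the dimmer Slfn2 probe set, and only 48 h has replicates. The IFNa/b line of Slfn1 stays above 0 (2.13, 1.42 and 0.90), that of Slfn2 crosses it at 72 h (-0.47, or 0.12 with spike-in scaling), and TSA gives the lowest Slfn2 point (-2.65).

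Slfn1 was the member whose pattern most resembled other interferon-responsive genes. The rule took the 5 genes with the highest Pearson correlation over the 11 group means, as a description with no test. For Slfn1 these were Irf9, the DNA-binding subunit of the interferon-activated complex (r = 0.981), the interferon-inducible DNA sensor Ifi204 (0.965), the secreted glycoprotein Lgals3bp (0.963), the transcription factor Irf7 (0.946) and the interferon-inducible Ifi27l2a (0.938). Of these 5, 4 were on the list of interferon-stimulated genes. Over the 10 stimulated groups alone the correlations were 0.934 to 0.977. Irf9 itself was at -2.03 with Ag-B7 against naive, at -0.55 with IL-12 against Ag-B7 alone and at 1.10 with IFNa/b, with the first of these called in limma (adjusted p = 1.2e-05) and the others not (adjusted p = 0.895 and 0.141 in limma).

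**Figure D4:**
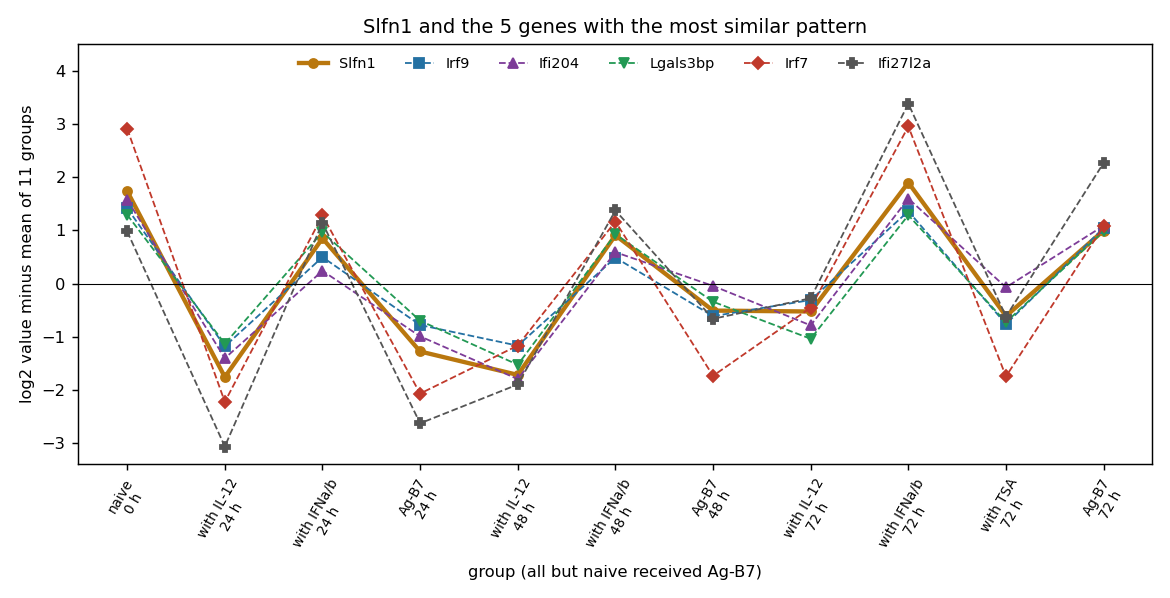
Log2 value minus the gene's own mean over the 11 groups for Slfn1 (thick line) and the 5 genes with the most similar pattern, in the order of time with Ag-B7 alone at the right of each time; lines only join groups. Slfn1 and Irf9 (r = 0.981) are high in naive cells and on each IFNa/b array and low with IL-12 at 24 and 48 h.

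The patterns nearest to the other members were of another kind. Slfn2 was nearest to the zinc finger genes Zfp644 (0.897) and Zfp865 (0.842), the transporter-like gene Mfsd14a (0.847), the T cell surface receptor Cd5 (0.839), which tunes antigen receptor signals, and the RNA-binding protein Hnrnpl (0.836). Slfn4 was nearest to Msl2 (0.962), Gfap (0.961), Ptbp2 (0.938), AF067061 (0.929) and Chrna6 (0.916); among these Gfap, a filament protein of glia, and Chrna6, a neuronal receptor subunit, are not T cell genes. For both members 0 of the 5 were on the interferon-stimulated list. Among the members the correlation over the 11 group means was 0.356 between Slfn1 and Slfn2, 0.706 between Slfn1 and Slfn4 and 0.235 between Slfn2 and Slfn4, with the groups sharing arrays and scaling.

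The interferon-stimulated list, which holds no Schlafen gene, gave the setting for Slfn1. Of its 59 genes, 36 were tested. With IFNa/b against Ag-B7 alone, 16 were called higher and 0 lower by limma, beside 0.414% and 0.0159% of all genes. At an unadjusted p below 0.05 these counts were 29 and 0 (limma). The median was 1.27, beside 0.00 for all genes and 1.42 for Slfn1. The largest were Usp18, the protease that removes Isg15 (6.15), Isg15 itself (4.88), Isg20 (3.91) and Ifitm3 (3.55). With IL-12 against Ag-B7 alone, 2 were called higher and 3 lower by limma, beside 0.382% and 0.239% of all genes. At an unadjusted p below 0.05 these counts were 2 and 13 (limma). The median was -0.36, beside -0.01 for all genes and -1.21 for Slfn1. The called genes with the largest differences were Usp18 (4.20), Iigp1 (-2.95), Ifitm3 (1.80) and Ifi47 (-1.39).

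Against naive cells, 3 of the 36 were called higher with Ag-B7 and 21 lower, beside 26.1% and 35.6% of all genes, with a median of -1.11 beside -0.23 for all genes and -2.24 for Slfn1. Irf7 (-4.64), Ifit3 (-3.73), Ifit1 (-2.91) and Usp18 (-2.89) were the largest. The counts were 3 higher and 21 lower also without naive replicate 2. After spike-in scaling 13 were called higher and 6 lower, and the median was 0.59. With IL-12 against IFNa/b, 26 were called lower and 0 higher by limma, beside 0.653% and 0.287% of all genes. At an unadjusted p below 0.05 these counts were 30 and 0 (limma). The median was -1.78, beside -0.01 for all genes, -2.62 for Slfn1 and -1.60 for Slfn2. Isg15 (-6.36), Isg20 (-5.15), Iigp1 (-4.39) and Rsad2 (-3.78) were the largest. At 24 h, 23 of the 36 were at least 2-fold higher with IFNa/b, beside 1.69% of all genes. At 72 h, 15 were at least 2-fold lower with IL-12 and 2 higher, beside 4.14% and 5.22% of all genes. With IFNa/b at 72 h 16 were at least 2-fold higher and 1 lower, beside 3.93% and 3.57%. With TSA 12 were at least 2-fold lower and 2 higher, beside 8.97% and 7.09%.

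The interferon signal chain was mostly lower with Ag-B7 at 48 h than in naive cells. In each comparison of stimulated groups 1 to 3 of its genes were called. Of 11 genes tested, 8 were called lower by limma with Ag-B7 than in naive cells and 0 higher, the same counts as at an unadjusted p below 0.05: Irf7, the interferon-gamma receptor subunits Ifngr2 (-3.64) and Ifngr1 (-2.58), Usp18, Irf9, the kinase Jak1 (-1.65), the transcription factor Irf1 (-0.89) and the receptor subunit Ifnar1 (-0.80). Tyk2 (-0.62), Socs1, a feedback inhibitor (-0.12), and Ifnar2 (-0.06) did not pass. The counts were 0 higher and 9 lower without naive replicate 2; after spike-in scaling they were 3 and 3, and the median was 0.11 in place of -1.65. With IFNa/b, Usp18 and Irf7 (2.90) were called higher and 0 of the 11 lower (4 and 0 at an unadjusted p below 0.05), where 0.414% of all genes were higher. With IL-12, Usp18 was called higher and 0 lower (1 and 0 unadjusted), where 0.382% of all genes were higher. Between IL-12 and IFNa/b, 3 were called lower, Irf7 (-2.33), Usp18 (-1.95) and Irf9 (-1.65), where 0.653% of all genes were.

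The quiescence genes were mostly lower with Ag-B7 at 48 h than in naive cells, as Slfn1 was. Of 29 tested, 1 was called higher with Ag-B7 and 23 lower, beside 26.1% and 35.6% of all genes, with a median of -1.43. These counts were 1 and 24 without naive replicate 2; after spike-in scaling 6 were called higher and 5 lower, with a median of 0.28. The largest were the transcription factor Klf2 (-4.08), the IL-7 receptor Il7r (-3.74), Klf3 (-3.64) and the antiproliferative gene Btg1 (-2.85). With IFNa/b against Ag-B7 alone, 0 of the 29 were called by limma in either direction, where 0.43% of all genes were. With so few genes called, a count of 0 does not set this list apart. At an unadjusted p below 0.05 in limma, 0 were higher and 5 lower, with no count over all genes beside them. The median was -0.18, beside 0.00 for all genes and 1.42 for Slfn1. With IL-12, 2 were called lower by limma, Itm2a (-1.30) and Dgka (-1.12), and 0 higher, beside 0.239% and 0.382% of all genes. At an unadjusted p below 0.05 these counts were 4 and 2 (limma), and the median was -0.14. Between IL-12 and IFNa/b, 1 was called higher and 0 lower (2 and 2 unadjusted), beside 0.287% and 0.653% of all genes called. On the 72 h array with TSA, 10 of the 29 were at least 2-fold lower than with Ag-B7 alone and 0 higher, beside 8.97% and 7.09% of all genes, with a median of -0.85 beside -2.65 for Slfn2.

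Of the genes of growth and of the G1 phase of the cell cycle, 17 were tested. Between Ag-B7 and naive cells 8 were called higher and 2 lower by limma, beside 26.1% and 35.6% of all genes, with a median of 0.58. The share called in either direction was near that of all genes (61.7%). The counts were 8 and 0 without naive replicate 2. After median centring they were 12 and 0 (median 1.22), and after spike-in scaling 15 and 0 (median 2.29). The largest were Myc, which drives growth (2.45), the cyclin Ccne2 (1.58), the kinase Cdk4 (1.51) and the cyclin Ccnd2 (1.31). In each of the 3 comparisons among stimulated groups 0 of the 17 were called by limma in either direction. Of all genes, 0.621% were called with IL-12, 0.43% with IFNa/b and 0.94% between IL-12 and IFNa/b. With so few genes called, 0 of 17 does not set this list apart. At an unadjusted p below 0.05 in limma there were 2 higher and 1 lower with IL-12, and 2 higher and 1 lower with IFNa/b. Between IL-12 and IFNa/b there were 0, with no count over all genes beside these.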

How the data were processed

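The deposited values are linear intensities, 1 per probe set and array, made with MAS5 per the submitters' processing notes, which name neither its version nor a target for scaling. The trimmed mean (2% off each end) was 1000.46 to 1000.74 on every array, so the authors had scaled the arrays, and medians ran from 232 to 507. Of 12488 probe sets, 10833 had 1 symbol in the platform annotation, for 8251 genes. The probe set with the highest mean stood for a gene. Values were taken as log2(value + 46.4), the pseudocount being the median over arrays of the 20th percentile. Genes above the 40th percentile of their array on at least 3 of 13 replicated arrays were kept (6279).

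One limma fit (version 3.58.1, under R 4.3.3) with an intensity trend held the 4 replicated groups, two-sided, with Benjamini-Hochberg adjustment over all 6279 genes and calls below 0.05; values after ± are its standard errors. The fit had 9 residual and 7.62 prior degrees of freedom, and it was tested on simulated data. Differences within arrays were tested by exact permutation (scipy 1.17.1, Python 3.11.15). The number of arrays limits the precision.

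The members and lists were chosen with earlier results of these data known. Named genes were the members, the 5 genes most like each, the signal chain, and up to 4 called genes of each other list with the largest differences. Same-numbered arrays deviated together for IL-12 and Ag-B7 alone (r = 0.280, 0.280 and 0.276), and not in every pair of the other comparisons. The replicate number was therefore read as a pairing for IL-12 only, from the data and not from the labels. Arrays with IFNa/b deviated with the array of Ag-B7 alone numbered 1 higher (r = 0.283, 0.278 and 0.454). The block by replicate number in the fit of all 4 groups does not follow that match, and no block that does was fitted. Alternatives changed the pseudocount, filter, scaling, probe sets, trend, arrays and block. Protein sequences were not used here, and genome coordinates only for the promoter windows and the order of the neighbouring genes.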

Additional observations from a re-analysis of the deposited data

Results flagged for a closer look

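The probe set shared by Slfn4 and Slfn3 had 1 array far from the others with Ag-B7 alone at 48 h: its gap divided by the group's range was 0.8306, just above Dixon's critical value for 4 samples. Chance gives such a gap in about 1 group in 20, and 5 probe sets were examined in that group.

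Several effects had opposite signs at different times, with 1 array a group at 24 h and 72 h, and none of these differences was tested. The log2 effect of IL-12 on the brighter Slfn2 probe set was lower by 1.02 at 48 h than at 24 h (-1.024) and by 1.53 at 72 h than at 24 h (-1.526). At 24 h that effect was 0.02, close to 0, and the dimmer probe set, at -0.16, did not change sign. The effect of IFNa/b on the brighter Slfn2 probe set at 72 h differed by -0.8304 from that at 24 h and by -1.068 from that at 48 h. On the dimmer probe set these were -0.4295 and -0.8413. With spike-in scaling the brighter probe set was at 0.12 at 72 h, so its sign did not change. The effect of IL-12 on Slfn4 at 72 h differed by -0.8555 from that at 24 h, at dim levels.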

How the results depend on the processing

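Slfn1 kept its call between IL-12 and IFNa/b in all 24 alternatives, and between Ag-B7 and naive cells in 23 of 24, the exception being spike-in scaling (-0.51). The Slfn1 rise with IFNa/b missed the threshold with median centring (1.39), quantile normalization (1.32) and spike-in scaling (1.51), and leaving out 1 array gave 1.31 to 1.496. Its fall with IL-12 missed it with median centring (-1.25), quantile normalization (-1.21) and spike-in scaling (-1.38), and at an unchanged -1.21 with no filter, no trend, the 2 groups alone and the 3 stimulated groups fitted without naive arrays; leaving out 1 array gave -1.52 to -0.87. Slfn2 against naive cells turned to 0.58 with median centring and 1.69 with spike-in scaling, was -0.74 without naive replicates 2 and 3 together (1 naive array was then left, assumed to vary like the other groups), and ran from -0.59 to 0.27 when 1 array was left out, turning positive without naive replicate 1 (0.27) or 3 (0.12). Slfn2 with IFNa/b passed in the 2 groups alone (0.60). Slfn2 with IL-12 passed at -1.01 in the 2 groups alone and in the 3 stimulated groups, and at -0.997 with the replicate block in those 2 groups; leaving out 1 array gave -1.09 to -0.86. The block in those 2 groups, the fit of the stimulated groups, and leaving naive replicate 2 out of the signal chain and growth counts, the dimmer probe set, the 24 h and the within-array differences were chosen after seeing the data. With the replicate block in the fit of all 4 groups Slfn1 with IL-12 was -1.32 (adjusted p = 0.0381 in limma). In that fit, which pairs the IFNa/b arrays by number too, the block changed no call of the 3 genes. Slfn2 between IL-12 and IFNa/b missed the threshold with median centring (-1.61) and spike-in scaling (-1.89), and leaving out 1 array gave -1.68 to -1.46. Slfn4 against naive cells missed it with quantile normalization (-0.50), median centring (-0.55), without naive replicate 2 (-0.91) and without replicate 1 of Ag-B7 alone (-0.86), and turned to 0.20 with spike-in scaling; leaving out 1 array gave -1.48 to -0.86. With the 1 naive array left without replicates 2 and 3 it was -1.003. Its cytokine differences, never called, turned to -0.029 (IL-12, spike-in scaling) and, between IL-12 and IFNa/b, to -0.0077 with quantile normalization and -0.17 with spike-in scaling; leaving out 1 array gave -0.23 to 0.39 (IL-12), -0.28 to 0.40 (IFNa/b) and -0.29 to 0.38 (IL-12 against IFNa/b). The sign turned without replicate 1 of Ag-B7 alone (-0.23 with IL-12, -0.28 with IFNa/b), without IFNa/b replicate 2 (-0.28 with IFNa/b) or 1 (-0.29 between the cytokines) and without IL-12 replicate 3 (-0.05). The causes were not tested.

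Single arrays moved too. Ag-B7 at 24 h against naive cells was -3.01 for Slfn1, -2.22 with median centring and -1.05 with spike-in scaling; for Slfn2 it was 0.45, 1.24 and 2.47, and -0.0729 without naive replicate 2; for Slfn4 it was -1.64, -0.85 and -0.10, and -0.71 with quantile normalization. IFNa/b at 72 h with spike-in scaling was 1.49 for Slfn1 and 0.12 for Slfn2. Counts of all genes called moved by over 1.5 times as well: with IL-12 against Ag-B7 alone, 24 were higher and 15 lower, against 108 and 83 with the replicate block in the 2 groups and 13 and 3 with spike-in scaling. With IFNa/b 1 gene was lower, against 7 with the block, and 26 were higher, against 17 with median centring; between the cytokines 18 were higher, against 33 in the 2 groups alone and 11 with spike-in scaling.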
